A study of Homo sapiens with 4 samples.

Results

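Tropomyosins, transgelins, calponins and caldesmon are proteins that bind along actin filaments. In a map of cytidine mismatches in RNA, 10 of their genes were followed: TPM1, TPM2, TPM3 and TPM4 (tropomyosins), TAGLN and TAGLN2 (transgelins), CNN1, CNN2 and CNN3 (calponins) and CALD1 (caldesmon). Every listed cytidine annotated to one of these gene names was taken, with 1 entry per position and gene. All 10 genes had at least 1 listed position, and together they held 59 of the 17862 positions listed in either group. The positions lay on chromosomes 1, 7, 9, 11, 15 and 19.

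The cells were LX-2, an established human hepatic stellate cell line of wild-type genotype. TGF-β1 cells received 5 ng/ml recombinant human TGF-β1 and their RNA was taken after 24 h, and control cells were untreated, with 2 libraries described as biological replicates in each group. RNA selected for poly(A) was sequenced after NaBH4 (sodium borohydride), a reagent that reduces N4-acetylcytidine (ac4C) to a base that reverse transcriptase can misread. The study asked how ac4C differs after TGF-β1, which is used to activate stellate cells in culture. No library is labelled as made without NaBH4, so a listed position is a mismatch at a C and not a proven ac4C.

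Tropomyosins are coiled-coil dimers that lie end to end in the groove of the actin filament and govern which motors and severing proteins can reach it. Each tropomyosin gene makes several proteins from alternative starts and exons. Transgelins and calponins share a calponin homology domain, and calponin and caldesmon restrain the ATPase of myosin on actin in smooth muscle. Several of these genes are classical targets of serum response factor (SRF) and serve as markers of contractile cells, including the myofibroblasts that arise in fibrotic tissue.

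The authors deposited 1 table per group, in which each position has 1 mismatch difference (printed here in percent, with no value below 1%) and 1 p-value. What is subtracted to give the difference is not stated. No value per library, no read count and no depth is given, so no value below has a replicate error, no difference between the groups was tested, and positions of a gene are not replicates of a condition. A position missing from a table can be unmodified, below the authors' limits or poorly covered. The TGF-β1 table held 11735 positions and that of control held 8112. Of 12 stellate cell and myofibroblast markers, 8 had a listed position after TGF-β1 and 4 in control, while DES, LRAT, RGS5 and COL1A2 had none in either table. None of the 8 hepatocyte, 4 endothelial and 6 muscle markers was listed. Among 5 leukocyte markers CD68 alone was listed, and among 5 epithelial markers SOX9 alone, in control.

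The coordinate reading was checked on sequence. RefSeq promoter windows (250 bases before to 50 after a gene's start, GRCh38.p14) contained 208 TGF-β1 positions and 155 control positions on the same strand, and the base was C at all of them. One of these lay in the genes described here, in the 5'UTR of TPM2, at chromosome 9 position 35689880 on the minus strand, 45 bases after a start. It is shown with its neighbourhood (chr9:35689876-35689905, minus strand, hg38, sequence from RefSeq), the listed cytidine in capitals.
TPM2 5'UTR position: gcctgccaccggtgcacccagtccgCtcac
This C was followed by T. Among listed positions in the 50 bases after starts, 62.5% of 152 after TGF-β1 and 57.8% of 102 in control were followed by G. Of the 491379 C in the 50 bases after all starts, with or without a listed position, 21.8% were. The sequence around the other positions was not analysed here.

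The promoter windows of the 10 genes were also searched on both strands for the CArG box, the SRF motif. It is CC, then 6 letters that are A or T, then GG, a pattern that reads the same way on both strands. A link between the motif and the listed positions was not tested. Of the 10 genes 9 matched the table, with 19 windows (TAGLN had none). The motif occurred in 2 of these windows, 1 of CNN2 and 1 of TPM4, which is 10.5%, and in 1.29% of the 35116 windows of all genes. It occurred in 8.33% of 48 windows of thin filament and actin regulator genes and in 12.2% of 74 windows of actomyosin contraction and SRF genes, shares to either side of that of these genes. The matches are shown with the motif in capitals, as letters in a window and not as bound sites (GRCh38.p14, plus strand).
CNN2 (chr19:1026509-1026538): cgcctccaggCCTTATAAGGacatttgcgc
TPM4 (chr19:16067355-16067384): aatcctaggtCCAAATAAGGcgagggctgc

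Across the 10 genes more cytidines were listed after TGF-β1: 48 positions in TGF-β1 cells, against 19 in control, a ratio of 2.53 where all genes together had 1.46. After TGF-β1, 8 genes had more positions, 2 had equal numbers (TPM3 and CNN3), and none had fewer. Of all 6112 listed genes, 51.2% had more and 35.3% had fewer. The median change was 2 positions per gene here and 1 over all genes. TPM2 and TAGLN, which each had 9 positions after TGF-β1, accounted for much of the ratio: it was 2.05 without TPM2 and 1.76 without both. These 2 genes were the only members with a gain of at least 5 positions, which 5.3% of all genes had. Since the tables give no transcript level, more modified cytidines cannot be told apart from more reads of the same transcript.

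**Figure D1:**
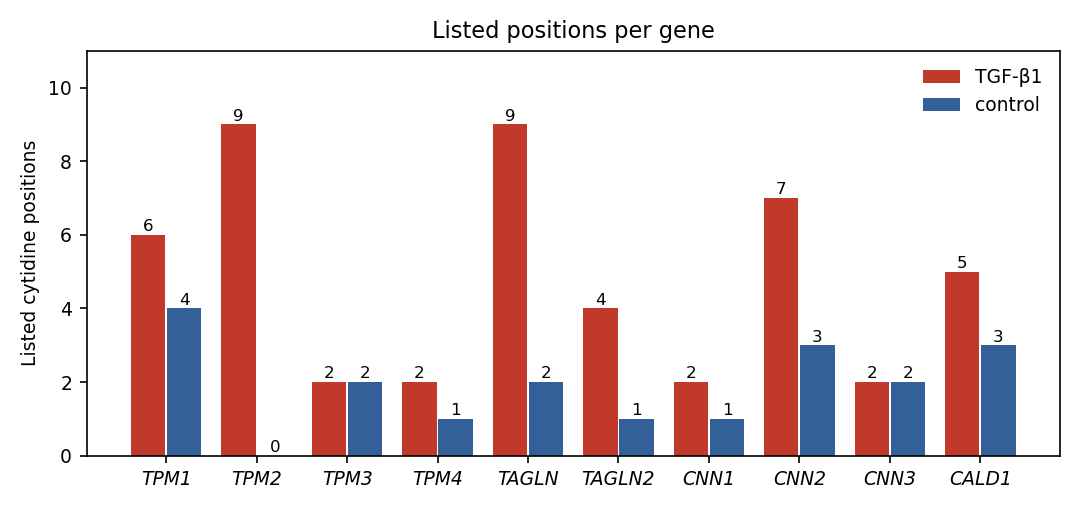
Number of listed cytidine positions (vertical axis) in each of the 10 genes, with TGF-β1 cells in red and control cells in blue; each bar is 1 count from 1 table per group and has no error. TPM2 has 9 positions after TGF-β1 and 0 in control, and TAGLN has 9 and 2.

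Nearly all of the net gain was in coding sequence, where these genes had few control positions. In coding sequence 36 positions were listed after TGF-β1 and 8 in control, a ratio of 4.5, while over all genes the coding ratio was 1.48. In 5'UTRs the counts were 6 and 4, and in 3'UTRs they were 5 and 6. Coding sequence thus held 75% of the positions after TGF-β1 and 42.1% in control, where all positions had 76.3% and 74.7%. A position counted as coding if any transcript placed it in coding sequence. Of the 11 positions listed in control alone, 6 were in 3'UTRs (54.5%, against 13.9% of all control-only positions), in TPM1, TPM3, TPM4, TAGLN2, CNN2 and CALD1. In TPM1, TPM3 and CALD1 the authors' p-values were 0.0471, 0.0271 and 0.0445, close to the limit of 0.05. In TPM4, TAGLN2 and CNN2 they were below 0.001, and exactly 0 in CNN2. None of the 3'UTR positions was listed in both groups. Over all genes and segments, 16.9% of TGF-β1 positions and 24.5% of control positions were. The share among all 3'UTR positions was not computed. Of the 40 positions listed after TGF-β1 alone, 31 were coding (77.5%, against 75.7% of all such positions).

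**Figure D2:**
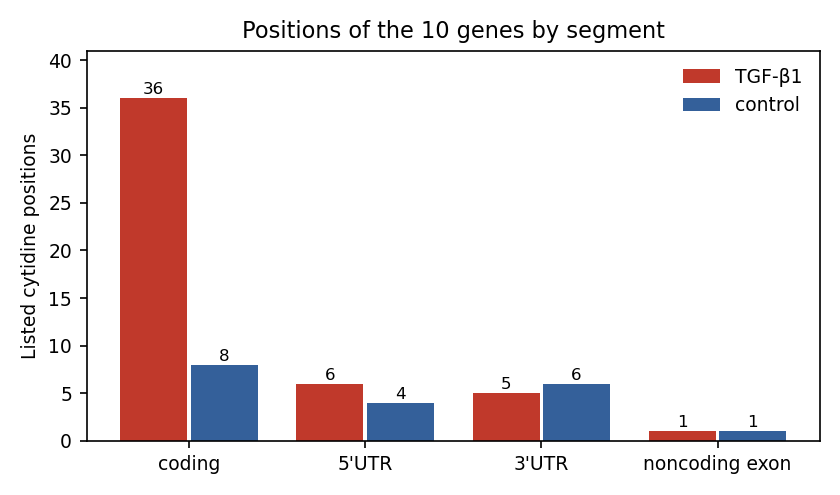
Number of listed positions of the 10 genes (vertical axis) by transcript segment, TGF-β1 in red and control in blue, each bar 1 count without error. Coding positions number 36 after TGF-β1 and 8 in control, while the UTR counts differ by at most 2.

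Among the tropomyosins TPM2, which encodes the beta chain, differed most between the tables. It had 9 positions after TGF-β1 and 0 in control. Only 63 of the 6112 genes (1.03%) gained 9 or more, and of the 1728 genes with 0 positions in control only 6 others had at least 9 after TGF-β1. Of its positions 7 were coding, 1 was in the 5'UTR shown above and 1 in a 3'UTR. Most were low, with a median of 2.53% and a range from 1.15% to 6.31%. The highest, 6.31%, was the 3'UTR position 35683054 on chromosome 9 (authors' p-value 0.0154). The highest coding position, 35685296, had 5.57% and an authors' p-value of 5.31e-154, and a cytidine 10 bases from it had 1.58%. The first of these coding cytidines is annotated to all 5 TPM2 transcripts in the tables. Positions 35685134 (1.96%) and 35682135 (3.15%) are annotated to 2 of the 5, so they lie in sequence that not every TPM2 transcript carries.

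TPM1, the alpha chain gene, had 6 positions after TGF-β1 and 4 in control, and 3 of them were listed in both. All 3 shared positions were lower after TGF-β1. The highest level of the whole set was at chromosome 15 position 63056980 on the plus strand, in a noncoding exon of 2 of 29 TPM1 transcripts, with 13.1% after TGF-β1 and 15.5% in control. Coding position 63042937 had 1.42% after TGF-β1 and 2.35% in control, and coding position 63062217 had 3.07% and 3.89%. Position 63042937 lies before the only TPM1 start in the RefSeq window table, as does 63043765, listed after TGF-β1 alone at 4.80%. Both are therefore in transcripts that begin further upstream. Position 63062217 is annotated to 21 of the 29 transcripts. The 3'UTR position 63071293 was listed in control alone, at 1.12%.

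TPM3 and TPM4, whose products occur in most nonmuscle cells, had few positions. TPM3 had 2 in each group. Its shared 5'UTR position, chromosome 1 position 154183165 on the minus strand, had 4.23% after TGF-β1 and 5.41% in control. This position and the TGF-β1-only coding position 154183062 (2.68%) both lie between the 2 RefSeq starts of TPM3, so they belong to transcripts that begin at the upstream start or before it. The control-only TPM3 position was in the 3'UTR, at 154157177, with 2.09%. TPM4 had 2 coding positions after TGF-β1, of which the higher was 1.89% at chromosome 19 position 16086534, and 1 position in control, a 3'UTR cytidine at 16102126 with 4.73%. No TPM4 position was shared. Tropomyosin genes are alike in sequence, and how reads that match several of them were placed is not stated.

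TAGLN, which encodes the actin crosslinker SM22 alpha and is a marker of contractile cells, had 9 positions after TGF-β1 and 2 in control, a gain of 7 that 1.98% of all genes reached. Of the TGF-β1 positions 5 were coding, 2 were in the 5'UTR and 2 in a 3'UTR. The highest were neighbouring cytidines of the 5'UTR on chromosome 11, plus strand, with 11.3% at 117199704 and 5.15% at 117199703. The shared coding position 117204255 had 2.34% after TGF-β1 and 1.35% in control, with authors' p-values of 1.31e-131 and 2.00e-07. A further cytidine 3 bases away, 117204258, was listed after TGF-β1 alone at 1.81%. The highest control position, 117203082, was coding and had 3.70%, and it was absent after TGF-β1. Both 3'UTR positions, 2.20% and 1.58%, are annotated to 1 of 7 TAGLN transcripts and lie inside the span of PCSK7 as well. Whether the reads kept their strand is not stated, so reads from TAGLN and PCSK7 cannot be told apart at these 2 positions. TAGLN2, the broadly expressed homologue, had 4 positions after TGF-β1 and 1 in control, none shared. Its TGF-β1 positions ran from 3.44% to 5.59%, the highest in the 3'UTR at chromosome 1 position 159918796, and its control position, also in the 3'UTR at 159918272, had 2.98%.

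Of the 3 families with several genes, the calponins had the highest median after TGF-β1, and in control the tropomyosins did, with 3.89%. The 11 calponin TGF-β1 positions had a median of 5.14%, and the 6 calponin control positions one of 3.68%. CNN1, the smooth muscle calponin, had 2 positions after TGF-β1 and 1 in control. Its highest was a 5'UTR cytidine at chromosome 19 position 11541126 with 11.7% after TGF-β1, and its control position, 11538959 in the 5'UTR, had 2.92%. The authors' p-value is exactly 0 at both of these. CNN2, found in many cell types, had 7 positions after TGF-β1 and 3 in control. Its shared 5'UTR position, chromosome 19 position 1031112, had 5.78% after TGF-β1 and 4.35% in control. Its 5 coding positions were all listed after TGF-β1 alone, from 1.93% to 8.50%, the highest at 1037744. CNN3, the acidic calponin, had 2 coding positions in each group. The shared one, chromosome 1 position 94899473 on the minus strand, had 7.15% after TGF-β1 and 3.86% in control. A cytidine at 94903434 was listed in control alone at 7.58%, the highest calponin level there.

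CALD1 encodes caldesmon, which binds actin, myosin, tropomyosin and calmodulin. It had 5 positions after TGF-β1, all coding, and 3 in control. The shared coding position, chromosome 7 position 134947604 on the plus strand, had 9.003% after TGF-β1 and 4.58% in control, a difference of 4.42 percentage points that was the largest of the 8 shared positions. A cytidine 30 bases from it, 134947574, was listed in control alone at 2.50% with an authors' p-value of 6.59e-26. The 3'UTR position 134970045 was also listed in control alone, at 1.77%.

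**Figure D3:**
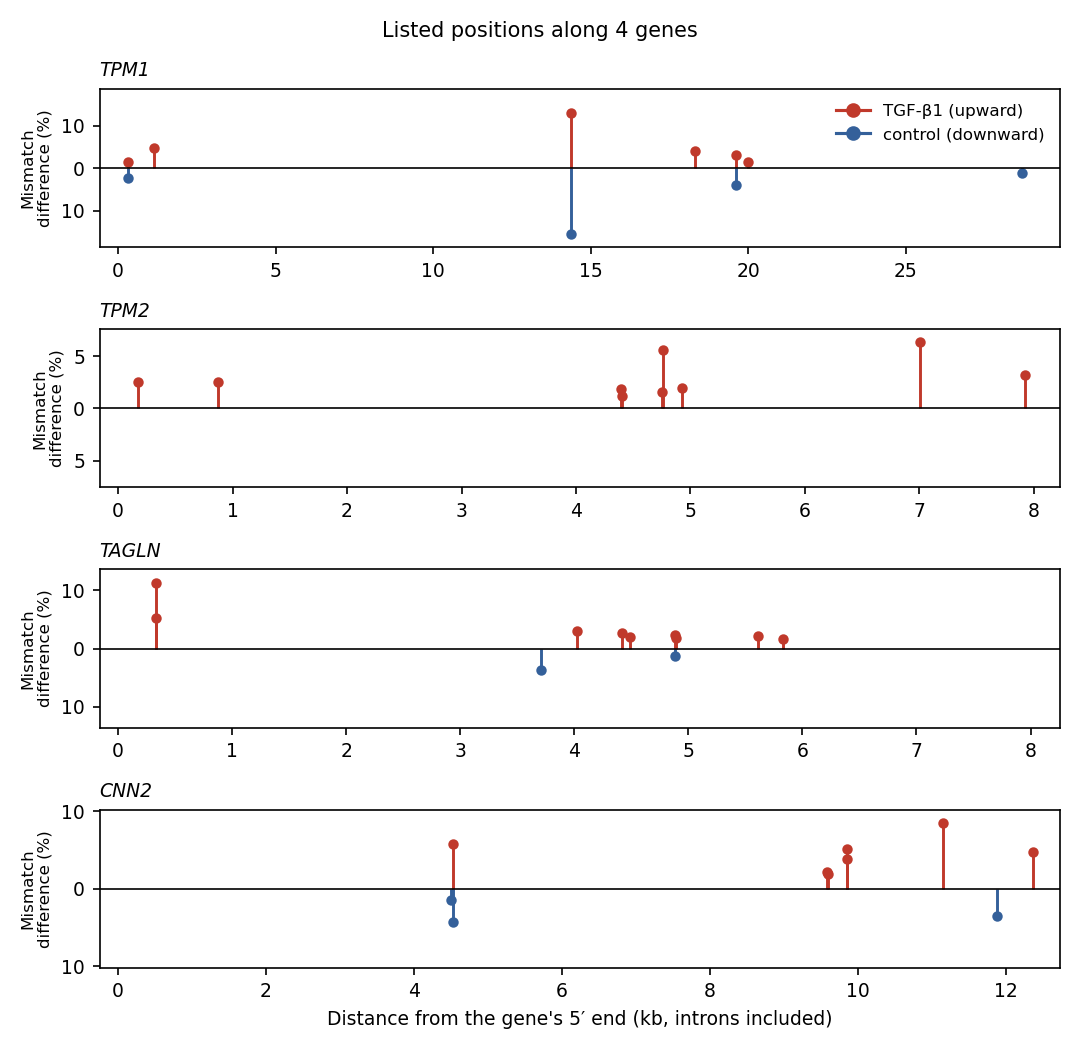
Mismatch difference (vertical axis, percent) at every listed position of TPM1, TPM2, TAGLN and CNN2 against the distance from the gene's 5′ end in kb, with TGF-β1 upward in red and control downward in blue; each stem is 1 position with 1 value and no error. TPM2 has stems upward alone, while the 3 shared positions of TPM1 have stems both ways.

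The 8 positions listed in both groups were split by gene family. All 4 in tropomyosin genes were lower after TGF-β1, with differences from -0.82 to -2.46 points, and all 4 in the other genes (TAGLN, CNN2, CNN3 and CALD1) were higher, with differences from 0.99 to 4.42 points. Thus 4 of 8 were higher, against 78.4% of the 1985 positions shared by the whole tables, and 4 of 8 were lower, against 21.6%. The split was noticed in these data and was not tested, and 3 of the 4 tropomyosin positions are in TPM1. Among the 129 genes with at least 3 shared positions, 2 (1.55%) had every one lower after TGF-β1, TPM1 being 1 of them. The median difference was -1.05 points for the tropomyosins and 2.36 for the others, and 0.085 over all 8, where the whole tables had 1.73. The value over all 8 is decided by single positions: without TAGLN's it was -0.82.

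**Figure D4:**
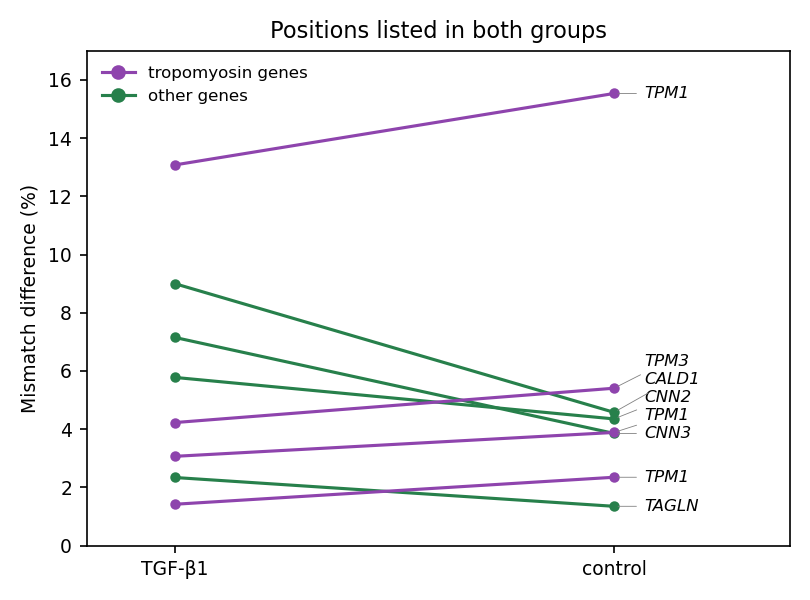
Mismatch difference (vertical axis, percent) of the 8 positions listed in both tables, with TGF-β1 on the left and control on the right; each line is 1 position without error, purple for tropomyosin genes and green for the other genes. Every purple line is lower at its TGF-β1 end and every green line is higher there.

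Median levels over all listed positions were lower in these genes than in the whole tables, a difference that was not tested. The median was 3.29% after TGF-β1 and 3.50% in control, where all positions had 4.68% and 4.05%. Lower medians were not particular to the 10 genes. Thin filament and actin regulator genes had 3.78% after TGF-β1 and 3.21% in control. Actomyosin contraction and SRF genes had 3.67% and 3.599%. Levels of at least 10% were reached by 3 positions of the 10 genes after TGF-β1 (TPM1, TAGLN and CNN1) and by 1 in control (TPM1). Among all positions 18.5% and 12.4% reached this level. Levels below 2% were listed at 14 of 48 positions after TGF-β1 (29.2%) and 4 of 19 in control (21.1%), against 9.94% and 13.3% of all. The tropomyosins held 8 of these 14. In the 5'UTRs the median was 5.47% after TGF-β1, from 2.55% to 11.7%, and in coding sequence it was 2.82%, from 1.15% to 9.003%. In control the 5'UTR median was 3.64% and the coding median 3.78%.

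**Figure D5:**
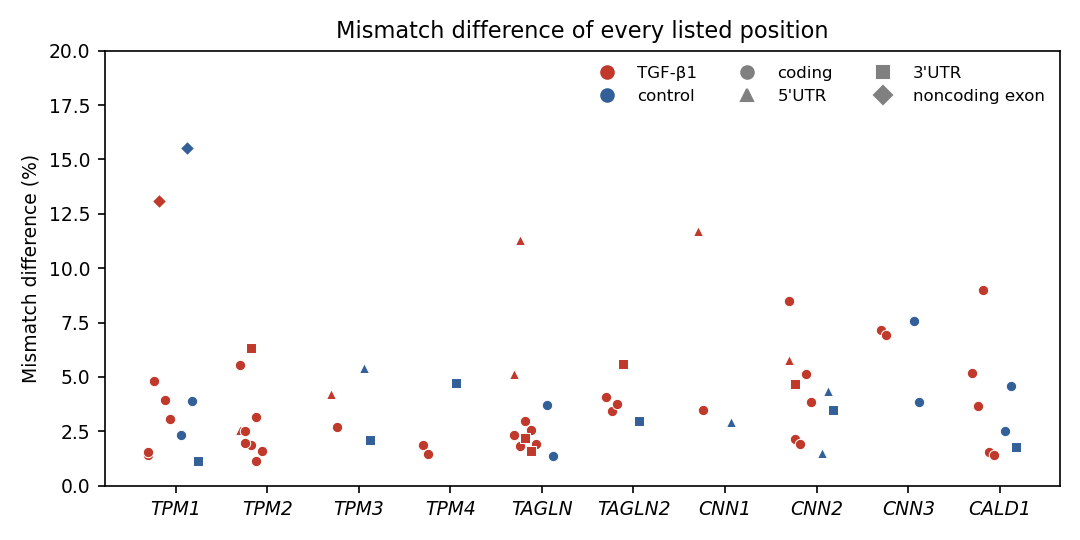
Mismatch difference (vertical axis, percent) of every listed position of the 10 genes, TGF-β1 in red and control in blue, with the marker shape giving the segment; each point is 1 position without error, shifted sideways for legibility. The highest TGF-β1 points are the noncoding exon position of TPM1 at 13.1% and the 5'UTR positions of CNN1 at 11.7% and TAGLN at 11.3%.

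The authors' p-values were lower after TGF-β1 as a whole, and followed the number of positions from gene to gene only in part. Their median over the positions of these genes was 1.66e-11 after TGF-β1 and 1.13e-05 in control, where all positions had 1.05e-05 and 0.000346. After TGF-β1 it was lowest for the genes with most positions, TPM2 (1.30e-36) and TAGLN (1.40e-31), with 9 each. It was highest for CNN3 (0.0167) and TPM4 (9.37e-05), with 2 each. Out of that order, CNN2 with 7 positions had 1.05e-07, and CNN1 with 2 had 1.16e-10, 1 of its p-values being exactly 0. In control the median was 0.0144 for TPM1, which had the most positions (4), and 1.10e-06 for TPM4, which had 1. At the shared TPM1 position 63062217 the level was lower after TGF-β1, yet the authors' p-value was 2.22e-62 there and 2.10e-14 in control. At the shared CNN3 position it was 0.0334 after TGF-β1 and 0.00547 in control. At every other shared position, those of the tropomyosins included, the authors' p-value was smaller after TGF-β1 than in control. The part that read depth has in the gain of positions was not tested.

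Positions often stood close together after TGF-β1. In all, 12 of the 48 (25%) were within 10 bases of another listed position of the same gene, and 6 (12.5%) were immediate neighbours, against 14.1% and 4.75% of positions over all genes. None of the 19 control positions had a neighbour within 10 bases, where 10.7% did over all genes. A neighbour is more likely in a gene with more listed positions. After TGF-β1 these genes had more per gene, 48 in 10 genes against 12076 in 6112, and the shares were not adjusted for this. The immediate neighbours were the TAGLN 5'UTR pair, the CNN2 coding pair 1036435 and 1036436 (5.14% and 3.83%) and the CALD1 coding pair 134947709 and 134947710 (1.57% and 1.39%). Neighbouring positions can be read by the same molecules. The 8 shared positions made up 16.7% of the 48 TGF-β1 positions, where the whole TGF-β1 table had 16.9%, and 42.1% of the 19 control positions, where the whole control table had 24.5%.

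Among other genes of the actin filament, 2 lists differed in their counts, with no test of the difference. Of 36 thin filament and actin regulator genes 29 were listed, 23 with more positions after TGF-β1 and 4 with fewer, with 199 positions after TGF-β1 and 72 in control (ratio 2.76). FLNC, a filamin that crosslinks actin, had 47 positions after TGF-β1 and 16 in control, its relative FLNA had 33 and 11, and ACTN1, an actinin, had 15 and 6. Of 35 genes of actomyosin contraction and SRF signalling 26 were listed, 15 with more and 10 with fewer, with 133 and 84 positions (ratio 1.58). Over all 6112 genes 51.2% had more and 35.3% had fewer, with a ratio of 1.46, to which this second list was close. MYH9, a nonmuscle myosin heavy chain, had 35 after TGF-β1 and 13 in control, TLN1, the integrin linker talin, 22 and 8, the myosin light chain gene MYL9 11 and 1, and SMTN, smoothelin, 11 and 5. Of the 10 genes with fewer, 3 chosen after their values were seen are MYLK, the myosin light chain kinase, with 0 positions after TGF-β1 and 11 in control, the nonmuscle myosin gene MYH10 with 2 and 8, and VCL, vinculin, with 1 and 6. The coding ratio was 2.73 for the thin filament genes and 1.49 for the contraction genes, beside 4.5 for the 10 genes above, and these ratios were not tested against each other. At shared positions 22 of 31 and 22 of 29 were higher after TGF-β1 in these lists. Of the 1985 positions shared by the whole tables, 78.4% were.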

How the data were processed

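The deposited tables hold 1 line per cytidine and overlapping transcript for each of the 2 groups, with the 2 libraries of a group combined in a way that is not stated. The submitters' processing notes name the build hg38 and the tools STAR (version 2.7.6a), fastp (version 0.23.1) and featureCounts, without their roles. The authors' mismatch difference lies between 0 and 1, so it was read as a deposited fraction and multiplied by 100 here. Every p-value in the authors' tables is under 0.05, with no statement on adjustment. Depth is unknown.

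Lines were merged to 1 entry per position and gene with Python 3.11.15 and pandas 2.3.3. Where transcripts gave different segments, coding sequence was taken first, then 5'UTR, 3'UTR, noncoding exon and intron. The end coordinate was taken as the 1-based position and checked against RefSeq windows. Counting was tested on simulated data. Groups came from the sample titles. Without values per library no test was made. All 10 genes are named, and up to 4 genes of each further list, those with most positions, of which 1 is not reported here. Members, lists and tests were chosen with earlier results of these data known. Alternatives covered p-value, level, list length, segment and gene left out.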

Additional observations from a re-analysis of the deposited data

How the results depend on the processing

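Of 89 recomputed values, 78 stayed near the reported one, 7 moved beyond that and 4 changed sign. Near meant within counting error, 1.5 times, or the range of the shared differences. That range is wide: the median shared difference without the tropomyosins, 2.36 points, counted as near. Some of the 78 could not have moved. Leaving out TPM2 removes no shared position, and a minimum of 2% or 5% removes no position of at least 10%. Keeping positions annotated to 1 gene removed none from these genes. The ratio of listed positions stayed above 1 in every alternative, from 1.75 per 1000 listed positions to 4.67 at a minimum of 5%, with 4.5 for coding positions. At least 7 genes had more positions after TGF-β1 in each alternative run over all 10 genes. Over all genes the ratio was 1.46 as reported. Neither that ratio nor the share of all genes with more positions is given here under the p-value and level filters. The median difference at shared positions, 0.085 points, became -0.82 with p-values below 0.001, with the TGF-β1 table shortened to the control's length, and without TPM2 and TAGLN, and -2.46 at a minimum of 5%, where 1 shared position was left. The count of higher shared positions, 4 of 8, became 2 of 5 with p-values below 0.001 and 0 of 1 at that minimum. The minimum of 5% also moved the median level to 6.61% after TGF-β1 and 7.58% in control, by its construction, and the coding share after TGF-β1 to 50%. Leaving out single genes, recounting the 2 further lists under each filter and matching the median difference within 1 base were chosen after seeing the data. No paired analysis was possible because each group has 1 table for its 2 libraries, and for the same reason no library could be left out. Depth and transcript level limit every statement on presence.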

Other observations

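Copies and neighbours of these genes were listed in control alone. TPM3P9 and TPM3P5, pseudogenes of TPM3 on chromosome 19, each had 1 position in a noncoding exon, with 9.38% at 53441883 and 3.81% at 41506555. CNN3-DT, the divergent transcript of CNN3, had 6.70% at chromosome 1 position 94928320. Reads of a TPM3 pseudogene can come from TPM3 itself, whose own control positions had 5.41% and 2.09%.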
